A study of Mus musculus with 28 samples.

Results

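The insulin-like growth factor genes and the genes of the proteins that bind these factors were described in cells sorted from the mouse thyroid gland and salivary gland. The 9 genes were Igf1, Igf2, Igf1r and Igfbp2 to Igfbp7, taken by symbol from the 47643 gene rows of the count tables. All 9 were found, and together they held 6961 of the 2263832 reads assigned to genes. The mice carried H2B-GFP, a histone fused to green fluorescent protein. The label is thinned out at each division, so a cell that seldom divides keeps it. Freshly isolated cells were sorted by GFP into positive (GFP+) and negative (GFP-) fractions for 3′ end sequencing of messenger RNA. Thyroid cells came from mice of 3, 6 and 9 months, with 4 libraries per fraction at 3 months, 4 at 6 months and 3 at 9 months. Salivary gland cells came from mice of 9 months, with 3 libraries per fraction. All 8 groups shared the H2B-GFP background. The labels give no further genotype, strain, treatment or sex, and do not say which promoter drove the transgene or how long the label had been chased. They also do not say that replicates were separate animals, so the p-values speak for the variation among these libraries, which may be technical.

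IGF1 and IGF2 are secreted growth factors that act mainly through the type 1 IGF receptor, a tyrosine kinase encoded by Igf1r. IGFBP2 to IGFBP6 bind both factors with high affinity in the extracellular space, where they hold them back from the receptor or deliver them to it, and proteases that cut a binding protein release its ligand. IGFBP7 is a related secreted protein with low affinity for IGFs that is well known from vessel walls. In the thyroid gland, IGF signalling acts beside thyrotropin on the growth of follicular cells.

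Depth set the limits of every value. Libraries held 507 to 209091 reads in genes, and 6 of the 28 held under 10000: GFP+ thyroid at 3 months replicates 1 and 2, GFP- thyroid at 6 months replicate 2, GFP+ thyroid at 6 months replicate 4, GFP- thyroid at 9 months replicate 1 and GFP+ salivary gland replicate 1. Levels are given as a gene's reads per 1000000 reads in genes (CPM). A gene with 0 reads could still have been present at up to 3 reads, which is 14.3 to 5917 CPM depending on the library. Pooled within each fraction, the 22 thyroid libraries held reads of all 6 follicular markers, Tg among them. The GFP+ salivary libraries had 0 reads of these 6 genes, and the salivary libraries carried duct marker sums of 2014 to 16480 CPM against at most 52.4 CPM in thyroid libraries.

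The results turned on 5 binding protein genes, and the stretches before their start sites are shown because the genes moved in opposite directions between the fractions. Each line gives the 120 bases before the annotated RefSeq start (GRCm38.p6, 5′ to 3′ on the gene's strand). The windows are chr11:7213924-7214043 (minus strand) for Igfbp3, chr5:77408046-77408165 (minus strand) for Igfbp7, chr11:99041124-99041243 (plus strand) for Igfbp4, chr1:72874866-72874985 (minus strand) for Igfbp5 and chr15:102144066-102144185 (plus strand) for Igfbp6. Capitals mark the motifs TATAAA and TATATA on the gene's strand and the GC box GGGCGG on either strand.
Igfbp3: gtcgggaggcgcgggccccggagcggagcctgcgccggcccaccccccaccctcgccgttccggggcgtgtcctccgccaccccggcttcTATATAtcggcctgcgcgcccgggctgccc
Igfbp7: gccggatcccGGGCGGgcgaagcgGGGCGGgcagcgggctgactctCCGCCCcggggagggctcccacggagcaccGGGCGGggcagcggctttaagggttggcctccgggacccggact
Igfbp4: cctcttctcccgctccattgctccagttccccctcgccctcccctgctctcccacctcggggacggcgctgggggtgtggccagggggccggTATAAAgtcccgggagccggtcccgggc
Igfbp5: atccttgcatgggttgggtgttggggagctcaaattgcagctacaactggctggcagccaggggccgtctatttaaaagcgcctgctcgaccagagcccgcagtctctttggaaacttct
Igfbp6: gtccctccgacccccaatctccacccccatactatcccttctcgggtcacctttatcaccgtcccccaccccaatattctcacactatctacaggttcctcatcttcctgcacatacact
Igfbp3 held TATATA, starting 30 bases before its start site, and Igfbp4 held TATAAA, starting 28 bases before. Igfbp7 held 4 GC boxes and neither TATA motif. Igfbp5 and Igfbp6 held none of the letters searched. Over all 32817 RefSeq windows of 250 bases before to 50 after a start, either TATA motif was found in 12.5% and a GC box in 35.6%. The 3 genes higher in GFP+ cells thus shared no searched motif, and neither did the 2 lower ones. In the same windows of 300 bases, CpG dinucleotides numbered 37 in Igfbp3, 33 in Igfbp7, 27 in Igfbp4, 10 in Igfbp5 and 8 in Igfbp6, against a median of 7 over all windows. Among neighbours on the chromosome, Igfbp2 lies next to Igfbp5, and Igfbp3 lies next to Igfbp1, which had 0 reads in all 28 libraries.

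In thyroid cells the binding proteins split by GFP. Igfbp3 and Igfbp7 transcripts were lower in GFP+ than in GFP- cells, and Igfbp4, Igfbp5 and Igfbp6 transcripts were higher, as was the ligand Igf1. With the reads of all 11 libraries of a fraction pooled, the GFP+ and GFP- levels were 31.8 and 747 CPM for Igfbp3, and 222 and 44.4 CPM for Igfbp6. As the mean of the 3 ages, 6 of the 7 members tested passed an adjusted p of 0.05 in edgeR's quasi-likelihood test (Benjamini-Hochberg adjustment), 4 higher and 2 lower in GFP+ cells. Among all 1900 genes tested, 20.2% passed, 11.4% higher and 8.79% lower. The median log2 fold change was 1.16 over the 7 members and -0.08 over all genes. With DESeq2's size factors in place of TMM factors the median of all genes was 0.22, and 70.7% of the 433 genes called were higher, against 56.4% of 383. The directions of the 6 members were the same under both scalings. Without a filter on low counts 3 members passed, Igfbp3, Igfbp6 and Igf2, and Igf1, Igfbp4, Igfbp5 and Igfbp7 did not. Igf2 and Igfbp2 were too low for this test. A gene entered the test by reaching about 122.6 CPM in enough libraries. Igfbp3 reached this level in 10 GFP- and 0 GFP+ libraries, Igfbp6 in 1 and 7, and Igf1 in 2 and 8. These 3 entered through 1 fraction and were bound to differ, so the count over members supports nothing by itself.

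**Figure D1:**
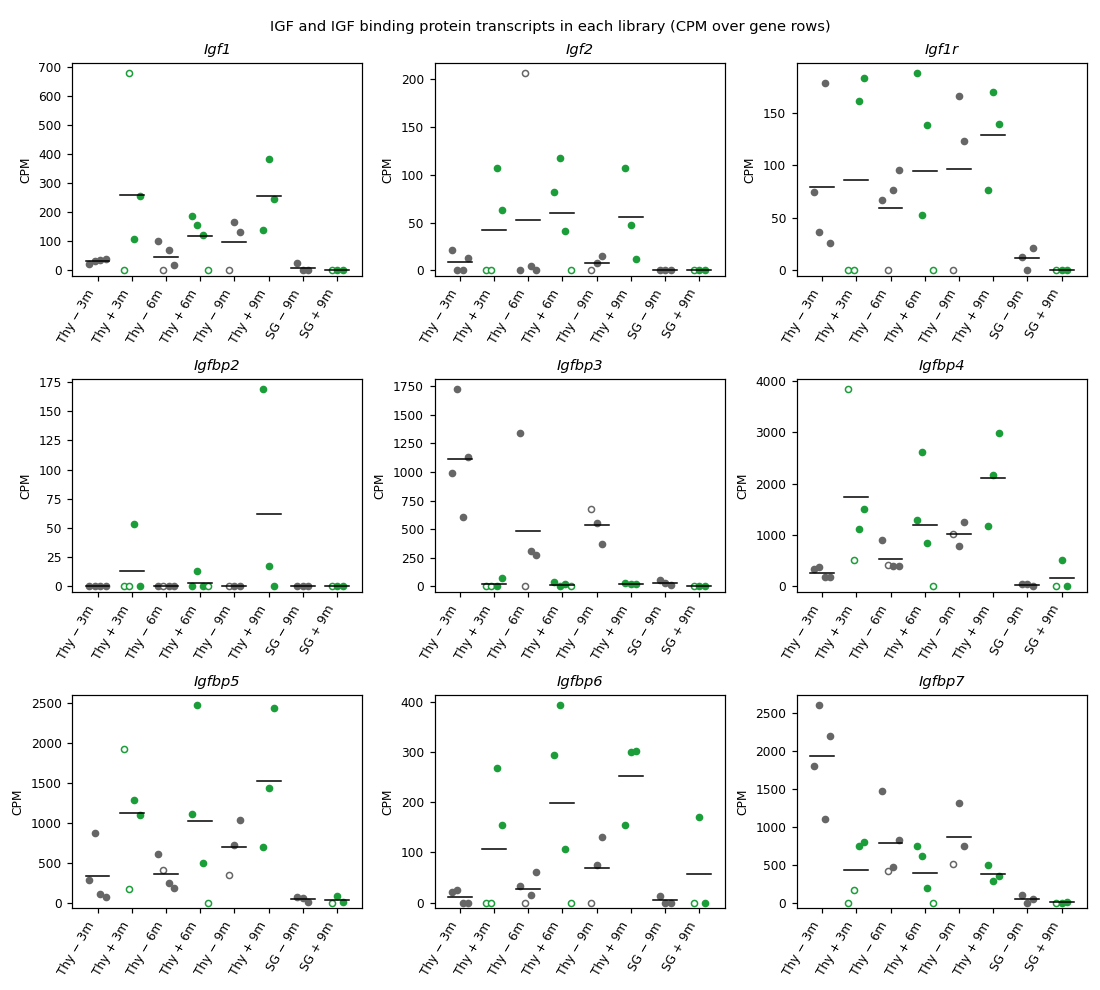
CPM of each of the 9 genes (y axis, linear, a separate scale for each panel) in the 28 libraries, arranged by gland, GFP fraction (minus, grey; plus, green) and age in months, with Thy for thyroid and SG for salivary gland. Each point is a library, open points have under 10000 reads in genes, and bars are group means: Igfbp3 was at most 74.3 CPM in every GFP+ library and 0 in 1 shallow GFP- thyroid library, and between 277 and 1724 CPM in the other GFP- thyroid libraries. Open points at 0 allow up to 509 to 5917 CPM.

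Among the binding proteins lower in GFP+ cells, Igfbp3, the main carrier of IGFs in the circulation, had the larger fold change, while Igfbp7, at a higher level, had the larger difference in CPM. In GFP- thyroid cells its level was 986, 1724, 608 and 1128 CPM in the 4 libraries at 3 months. At 6 months it was 1341, 0, 306.1 and 277 CPM, and at 9 months 680, 551 and 369 CPM. In GFP+ cells it was 0, 0, 0 and 74.3 CPM at 3 months, 35.3, 0, 25.6 and 0 CPM at 6 months, and 30.7, 17.6 and 23.3 CPM at 9 months. Every GFP- library except replicate 2 at 6 months lay above every GFP+ library. That library held 4845 reads in genes, so its 0 reads allow up to 619 CPM. The 0 reads in GFP+ replicates 1 and 2 at 3 months allow up to 1921 and 509 CPM. Those in GFP+ replicate 4 at 6 months allow up to 5917 CPM. The separation is thus not shown for these shallow libraries. Pooled over ages, Igfbp3 was 23.5-fold lower in GFP+ cells (95% interval 16.1 to 35.6, counting error only). Of the 28 Igfbp3 reads in GFP+ cells, 13 came from replicate 4 at 3 months. Without that library the pooled level was 35.1-fold lower (21.1 to 63.0). The fitted log2 fold change, as the mean of the 3 ages, was -4.54 ± 0.49 (SE, adjusted p = 5.93e-18), and -6.17 without that library.

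At 3 months 4 of the 7 members passed (background 9.68% of all genes), 2 higher (background 4.95%) and 2 lower (4.74%). At 6 months 2 passed (7.11%), 1 higher (5.26%) and 1 lower (1.84%). At 9 months 1 passed (1.89%), as lower (1.63%), and 0 as higher (0.263%). These calls were of Igfbp3, Igfbp6 and Igf1, which entered the test through 1 fraction, and of Igfbp7 at 3 months. The counts by age thus support nothing by themselves either. With DESeq2's size factors, 80.1% of the genes called at 3 months were higher, against 51.1% with TMM factors. Igfbp3 passed the test at each age, but at 6 and 9 months it did not with no filter on low counts (adjusted p = 0.0734 and 0.19). The log2 fold change was -4.71 ± 0.82 at 3 months (adjusted p = 3.14e-06), -4.56 ± 0.82 at 6 months (1.15e-05) and -4.34 ± 0.88 at 9 months (0.000227). Without replicate 4 of the GFP+ fraction at 3 months, the other 3 libraries of that group held 0 reads of Igfbp3 in 26097 reads, which makes it at least 11.5-fold lower from 3 reads over the group. At 9 months Igfbp3 missed the threshold when GFP+ replicate 1 (adjusted p = 0.0585) or GFP+ replicate 2 (0.112) was left out, while the fold change stayed between -4.41 and -4.00 over all libraries left out in turn.

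Igfbp7, the low-affinity member known from vessel walls, was also lower in GFP+ cells. Its level in GFP- thyroid cells was 1801, 2611, 1109 and 2205 CPM at 3 months, 1475, 413, 464 and 823 CPM at 6 months, and 510, 1320 and 753 CPM at 9 months. In GFP+ cells it was 0, 170, 751 and 806 CPM at 3 months, 752, 616, 194 and 0 CPM at 6 months, and 492, 288 and 349 CPM at 9 months. The fractions did not overlap at 3 months or at 9 months, and they overlapped at 6 months. At 3 months the 0 reads in GFP+ replicate 1 allow up to 1921 CPM, so the separation is not shown for that library. The 170 CPM of GFP+ replicate 2 is 1 read in a library of 5896. At 9 months the lowest GFP- value, 510 CPM, rests on 3 reads in a library of 5884, against 492 CPM in GFP+ replicate 1. The log2 fold change as the mean of ages was -1.53 ± 0.42 (adjusted p = 0.00255), and the pooled level was 2.80-fold lower (2.51 to 3.14). By age, it passed at 3 months (-2.28 ± 0.72, adjusted p = 0.0210), but not with no filter on low counts (0.341). It did not pass at 6 months (-1.0 ± 0.69, 0.542) or at 9 months (-1.31 ± 0.78, 0.712), where it passed without libraries under 10000 reads (-1.61, 0.00854). Over the mean of ages Igfbp7 missed the threshold when GFP- replicate 2 at 9 months was left out (-1.35, adjusted p = 0.0561).

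Of the binding proteins higher in GFP+ cells, Igfbp6, which prefers IGF2 to IGF1, had the largest fold change among those tested. Its level in GFP- thyroid cells was 21.4, 24.5, 0 and 0 CPM at 3 months, 33.5, 0, 14.4 and 60.6 CPM at 6 months, and 0, 75.4 and 131 CPM at 9 months. In GFP+ cells it was 0, 0, 268 and 154 CPM at 3 months, 293.9, 393, 107 and 0 CPM at 6 months, and 154, 300 and 302.3 CPM at 9 months. Every GFP+ library over 10000 reads lay above every GFP- library of its own age, and the 3 GFP+ libraries at 0 were all under 10000 reads. GFP- replicate 2 at 6 months and GFP- replicate 1 at 9 months, both at 0, were also under 10000 reads. Their 0 reads allow up to 619 and 510 CPM, so the order is not shown for these libraries. The log2 fold change was 2.18 ± 0.44 as the mean of ages (adjusted p = 1.24e-05). It was 2.77 ± 0.84 at 3 months (0.0162), 2.48 ± 0.72 at 6 months (0.0128) and 1.29 ± 0.69 at 9 months, where it did not pass (0.593). The call at 3 months was lost without GFP- replicate 4 (adjusted p = 0.106), GFP+ replicate 3 (0.0602) or GFP+ replicate 4 (0.134), and the call at 6 months without GFP- replicate 3 (0.185) or GFP+ replicate 2 (0.101). Igfbp6 entered the test through the GFP+ fraction. With no filter on low counts it passed neither at 3 months (adjusted p = 0.33) nor at 6 months (0.325).

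Igfbp4, a binding protein that holds IGFs away from the receptor until the protease PAPP-A cuts it, was also higher. In GFP- thyroid cells it was at 332, 373, 179 and 180 CPM at 3 months, 905, 413, 407 and 399 CPM at 6 months, and 1020, 784 and 1252 CPM at 9 months. The GFP+ fraction had 3841, 509, 1127 and 1509 CPM at 3 months, 1293, 2621, 839 and 0 CPM at 6 months, and 1167, 2168 and 2988 CPM at 9 months. The fractions did not overlap at 3 months. The value of 3841 CPM rests on 6 reads, and that of 509 CPM on 3 reads in a library of 5896. Igfbp5, which binds to the extracellular matrix, was at 279, 868, 107 and 64.1 CPM in GFP- cells at 3 months, 603, 413, 239 and 182 CPM at 6 months, and 340, 724 and 1029 CPM at 9 months. In GFP+ cells it was at 1921, 170, 1288 and 1092 CPM at 3 months, 1105, 2477, 491 and 0 CPM at 6 months, and 691, 1433 and 2442 CPM at 9 months, so its fractions overlapped at each age.

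The log2 fold change of Igfbp4 as the mean of ages was 1.26 ± 0.42 (adjusted p = 0.0175) and that of Igfbp5 was 1.16 ± 0.41 (0.0258). Neither passed at a single age, where Igfbp4 had fold changes of 1.54, 1.17 and 1.08 and Igfbp5 of 0.87, 1.66 and 0.96 at 3, 6 and 9 months. Under other settings Igfbp4 passed at 3 months in 6 alternatives (fold changes of 1.92 to 2.52, adjusted p of 4.6e-05 to 0.00795) and at 6 months in 3 (1.37 to 1.53, 0.00352 to 0.03). Igfbp5 passed at 6 months in 3 (1.74 to 2.05, 0.0266 to 0.0493). Both calls over ages depended on single libraries. That of Igfbp4 was lost on leaving out any of 8 of the 22 libraries, with fold changes of 1.02 to 1.39 and adjusted p of 0.0527 to 0.112. They were GFP- replicate 4 at 3 months, all 3 GFP- libraries at 9 months, GFP+ replicate 4 at 3 months, GFP+ replicate 2 at 6 months, and GFP+ replicates 2 and 3 at 9 months. That of Igfbp5 was lost on leaving out any of 13, with fold changes of 0.86 to 1.31 and adjusted p of 0.0513 to 0.179. They were GFP- replicates 1, 3 and 4 at 3 months, GFP- replicate 4 at 6 months, all 6 libraries at 9 months, GFP+ replicates 3 and 4 at 3 months and GFP+ replicate 2 at 6 months.

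**Figure D2:**
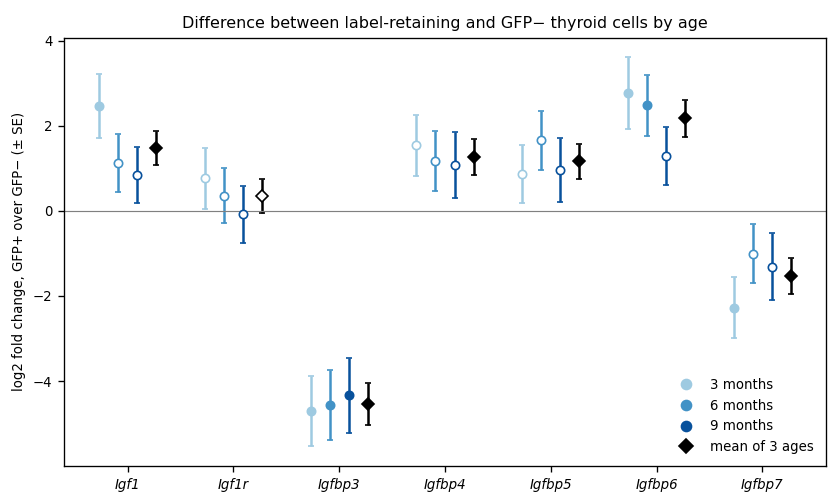
Log2 fold change (y axis) between the GFP+ and GFP- thyroid fractions for the 7 members tested, at 3, 6 and 9 months (circles) and as the mean of the 3 ages (diamonds), with standard errors from edgeR's quasi-likelihood fit. Filled symbols passed an adjusted p of 0.05: Igfbp3 did at all 3 ages, near -4.5, while Igfbp4, Igfbp5 and Igfbp6 lay above 0 and Igfbp7 below.

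Igfbp2, a binding protein abundant in fetal tissue, was almost absent. It had 0 reads in the 11 GFP- thyroid libraries together, which allows up to 3.03 CPM, and 16 reads in the GFP+ libraries (18.2 CPM pooled), at least 6.01-fold higher. Of these 16 reads, 11 lay in replicate 1 at 9 months, at 169 CPM, and without that library the level was at least 2.03-fold higher. In the fit without a filter it did not pass (adjusted p = 0.105). The other libraries with reads were GFP+ replicate 3 at 3 months and replicate 2 at 6 months with 1 read each, and replicate 2 at 9 months with 3.

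Of the ligands, Igf1 was higher in GFP+ thyroid cells. Its level in GFP- cells was 21.4, 30.6, 35.8 and 38.5 CPM at 3 months, 101, 0, 71.7 and 17.3 CPM at 6 months, and 0, 166 and 131 CPM at 9 months. The GFP+ levels were 0, 678, 107 and 257 CPM at 3 months, 188, 157, 123 and 0 CPM at 6 months, and 138, 382 and 244 CPM at 9 months. Except for the 2 shallow GFP+ libraries at 0, every GFP+ library lay above every GFP- library at 3 and at 6 months, and at 9 months they overlapped. At 3 months the value of 678 CPM rested on 4 reads and that of 107 CPM on 2. The GFP- libraries at that age held 1 to 5 reads each. At 6 months the highest GFP- value, 101 CPM, rested on 3 reads. The 0 reads in GFP- replicate 2 at 6 months allow up to 619 CPM, so the order is not shown for that library. The log2 fold change was 1.48 ± 0.40 as the mean of ages (adjusted p = 0.00227) and 2.46 ± 0.75 at 3 months (0.0162). It was 1.12 ± 0.68 at 6 months (0.432) and 0.85 ± 0.66 at 9 months (0.848). The call at 3 months was lost without GFP- replicate 1 (adjusted p = 0.0695), GFP- replicate 2 (0.0964) or GFP+ replicate 4 (0.183), and with no filter on low counts (0.398).

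Igf2, the ligand of high fetal expression, had 53 reads in GFP+ and 8 in GFP- thyroid cells, a pooled ratio of 7.46 (3.52 to 18.2). In GFP+ cells its level was 0, 0, 107 and 62.9 CPM at 3 months, 82.3, 118, 40.9 and 0 CPM at 6 months, and 108, 47.0 and 11.6 CPM at 9 months. In GFP- cells it was 21.4, 0, 0 and 12.8 CPM, then 0, 206, 4.78 and 0 CPM, then 0, 7.54 and 15.4 CPM at these ages. The value of 206 CPM was a single read in a library of 4845. By age the pooled ratio was 7.82 (2.15 to 42.8) from 13 and 3 reads at 3 months, 12.1 (2.99 to 105) from 24 and 2 reads at 6 months, and 4.46 (1.28 to 23.9) from 16 and 3 reads at 9 months. These intervals cover counting error only. In the fit without a filter on low counts, over 16525 genes, the log2 fold change of Igf2 as the mean of ages was 2.38 ± 0.66 (adjusted p = 0.0202), and it passed at no single age.

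The receptor gene did not pass the test. Igf1r was at 75.1, 36.7, 179 and 25.6 CPM in GFP- thyroid cells at 3 months, 67.0, 0, 76.5 and 95.3 CPM at 6 months, and 0, 166 and 123 CPM at 9 months. The GFP+ libraries had 0, 0, 161 and 183 CPM at 3 months, 188, 52.4, 138 and 0 CPM at 6 months, and 76.8, 170 and 139 CPM at 9 months. The fractions overlapped at each age. The log2 fold change as the mean of ages was 0.35 (95% interval -0.42 to 1.12, adjusted p = 0.659), an interval that holds a rise of 2-fold as well as no difference.

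The pooled sum of the reads of all 6 binding protein genes differed in direction between ages, while the libraries of the fractions overlapped at each age. Pooled over libraries, it was 4328 CPM in GFP- and 3556 CPM in GFP+ thyroid cells at 3 months (1.22-fold lower), 1771 and 3041 CPM at 6 months (1.72-fold higher) and 3472 and 4419 CPM at 9 months (1.27-fold higher). Over all ages it was 3169 and 3662 CPM. By library, the sum at 3 months was 2003 to 5601 CPM in GFP- and 848 to 5762 CPM in GFP+ cells. It was 1238 to 4358 and 0 to 6120 CPM at 6 months, and 2549 to 3533 and 2703 to 6105 CPM at 9 months. Of the 715 GFP+ reads at 3 months, 636 came from replicate 4. These sums are given with no test, and a change of direction with age is not shown. Igfbp3 and Igfbp7 supplied 65.4% of the binding protein reads in GFP- cells (2052 of 3139, 95% Clopper-Pearson interval 63.7 to 67.0%) and 13.8% in GFP+ cells (444 of 3222, 12.6 to 15%). Among libraries with at least 20 such reads, this share was 31.7 to 93.2% in 9 GFP- libraries and 6.10 to 24.2% in 8 GFP+ libraries, with no overlap. The 2 genes were put together because both were lower, so the direction of this share is a description only. Igfbp7 overlaps Polr2b on the opposite strand (45 reads in all 28 libraries), and Igf1 and Igf2 overlap Igf1os (0 reads) and Igf2os (2 reads) likewise; whether reads were counted by strand is not given in the sources used here. The library preparation reads the 3′ end of a transcript and the reads were not divided by length, so shares are of reads.

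The make-up of the binding protein reads is described by age, with no test. In GFP- cells the pooled share of Igfbp3 was 30.5% at 3 months, 21.4% at 6 months and 13.4% at 9 months, and that of Igfbp7 was 50.8, 37.4 and 29.6%. The share of Igfbp4 was 7.07, 25.2 and 29.3%, and that of Igfbp5 was 11.2, 14.3 and 24.9%. In GFP+ cells Igfbp7 had 21.8, 13.7 and 7.82%, Igfbp4 had 41.1, 43.6 and 49.4% and Igfbp5 had 30.6, 34.9 and 35.1%. Igfbp6 took 4.48, 6.99 and 6.13% in GFP+ cells against 0.382, 1.73 and 2.89% in GFP- cells. Igfbp3 had 1.82, 0.736 and 0.493% in GFP+ cells. By library, the Igfbp3 share of GFP- cells was 28.8 to 31.5% in the 4 libraries at 3 months and 10.4 and 15.9% in the 2 of sufficient reads at 9 months.

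**Figure D3:**
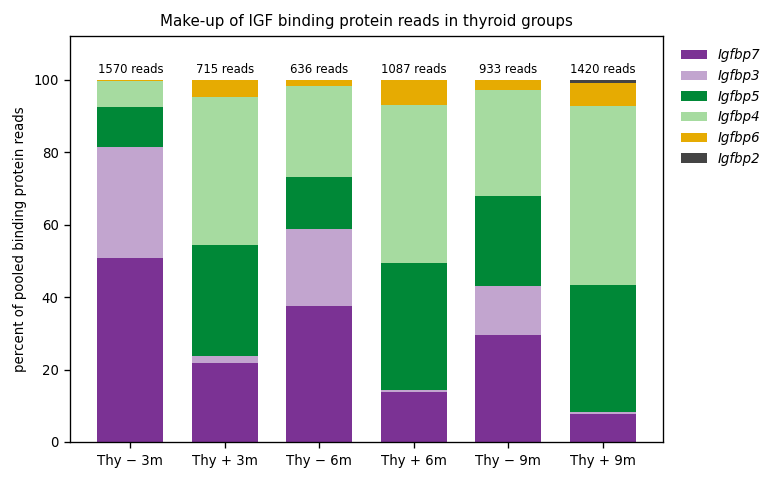
Percent of the pooled binding protein reads (y axis) taken by each of the 6 genes in the GFP- (minus) and GFP+ (plus) thyroid groups (Thy) at 3, 6 and 9 months, with the number of reads above each bar. Igfbp3 and Igfbp7 (purple shades) together hold 81.3, 58.8 and 43.0% in GFP- cells and 23.6, 14.4 and 8.31% in GFP+ cells.

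Tests across ages on the gene levels called no member. In GFP- cells, 0 of 7 members passed in edgeR's quasi-likelihood test over the 3 ages, against 1.53% of all genes, and 0 passed in DESeq2. At an unadjusted p under 0.05 there were 3, Igf1, Igfbp3 and Igfbp6, and the lowest adjusted p was 0.230 for Igfbp6. Between 3 and 9 months, the fitted log2 fold change in GFP- cells was -1.42 for Igfbp3, -1.29 for Igfbp7, 1.64 for Igfbp4, 2.0 for Igf1 and 2.44 for Igfbp6. With libraries under 10000 reads left out, Igfbp4 (1.89, adjusted p = 0.00251) and Igfbp7 (-0.91, 0.0337) passed. Igfbp4 also passed with DESeq2's size factors (adjusted p = 0.0204), with library size only (0.0265) and with a stricter filter on low counts (0.0417). In GFP+ cells 0 of 7 members passed (background 1.58%; 0 at an unadjusted p under 0.05; 0 in DESeq2). The difference between fractions changed with age for 0 of 7 members (background 0.158%; 0 at an unadjusted p under 0.05; 0 in DESeq2), so the calls at 3 months that were missing at 9 months are not shown to differ between these ages.

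Markers of other cell types moved with the members. The summed level of 7 endothelial markers was 1717 to 7307 CPM in GFP- thyroid libraries, with all 7 detected at each age, and 0 to 1921 CPM in GFP+ libraries, or 215 to 858 CPM in those over 10000 reads. As the mean of ages, 6 of these 7 passed and were lower in GFP+ cells, Kdr (-4.85) and Plvap (-4.08) with the largest fold changes, and Tek did not pass (-0.60). Among all 1900 genes tested, 11.4% passed as higher and 8.79% as lower, and each count of markers over the mean of ages stands beside these shares. Markers, too, could enter the test through the fraction where they were high, so their counts support nothing by themselves. The summed level of 7 fibroblast markers was 1073 to 8594 CPM in GFP- libraries and 0 to 17872 CPM in GFP+ libraries, or 9191 to 17872 CPM in those over 10000 reads, and all 7 passed and were higher, for example Col1a1 (2.46) and Pdgfra (2.26). By age, the endothelial sum in GFP- libraries was 4434 to 7307 CPM at 3 months, 1717 to 3922 CPM at 6 months and 1869 to 3145 CPM at 9 months. The fibroblast sum in GFP- cells was 1073 to 1908 CPM at 3 months and 2719 to 8594 CPM at 9 months. Of 7 pericyte and smooth muscle markers, 5 were tested and 3 passed over the mean of ages, all higher in GFP+ cells. Their pooled sums at 9 months were 666 CPM in GFP- and 591 CPM in GFP+ cells. At that age 0 of these and 0 of the fibroblast markers passed, and 5 endothelial markers passed as lower. Among all genes tested at 9 months, 0.263% passed as higher and 1.63% as lower. One pericyte and smooth muscle marker was among the 3 genes whose difference between fractions changed with age. Over the mean of ages, markers of other cells of the gland and of blood were lower in GFP+ cells. All 3 markers of C cells, the calcitonin-producing cells, passed as lower in GFP+ cells (Scg2 -5.35, Calca -4.65 and Chga -1.56), with sums of 2039 to 27859 CPM in GFP- and 678 to 21134 CPM in GFP+ libraries. All 4 hemoglobin genes, which mark red cells, were lower (-3.64 to -2.62), with sums of 358 to 14271 CPM and 0 to 1729 CPM. Of 3 parathyroid markers 1 was tested and was lower (Pth, -1.57), and of 6 follicular markers 2 were tested and 1 was lower (Tg, -2.22). Of the immune, adipocyte and Schwann cell markers, 0 were deep enough to test. In bulk libraries, fewer cells of a type and less RNA of a gene per cell cannot be told apart, and the part of these cell types in the results was not tested.

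**Figure D4:**
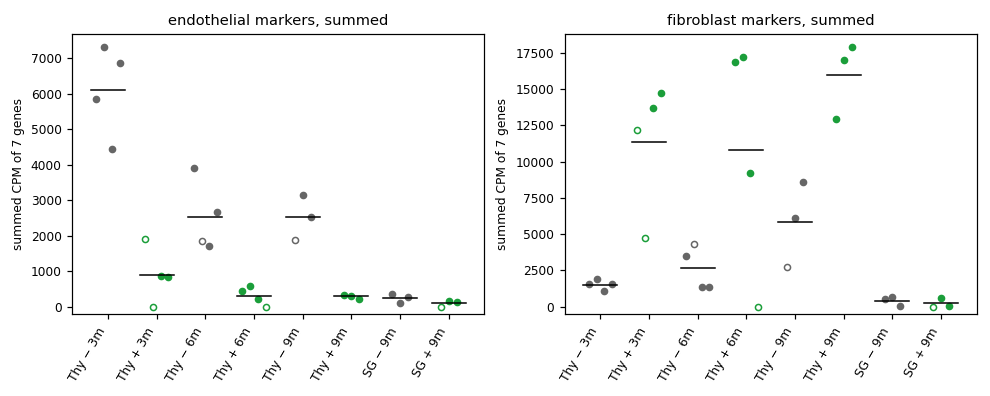
Summed CPM (y axis, linear) of 7 endothelial markers (left) and 7 fibroblast markers (right) in each library, arranged as gland (Thy, thyroid; SG, salivary gland), GFP fraction (minus, grey; plus, green) and age in months, with group means as bars and open points for libraries under 10000 reads. Endothelial sums are 1717 to 7307 CPM in GFP- thyroid libraries, and fibroblast sums are 9191 to 17872 CPM in GFP+ thyroid libraries over 10000 reads.

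Some of the genes most like the members were among these markers. Likeness was the Pearson correlation of log2 CPM with a prior count of 2 over the 17 thyroid libraries of at least 10000 reads, which share the split by fraction and the depth, and is given with no test. Igfbp3 was most like Esm1 (r = 0.969), Btnl9 (0.962) and Rdx (0.952). Esm1, secreted by activated endothelial cells, carries an IGF-binding protein domain. Igfbp7 was most like Emcn (0.929), Flt1 (0.923) and Egfl7 (0.923), which are endothelial genes. Igfbp6 was most like Ogn (0.951), Pi16 (0.945) and Col6a2 (0.942), and Igfbp5 like Ogn (0.932), Ddr2 (0.915) and Igfbp4 (0.908). Igfbp4 was most like Timp2 (0.943), Ogn (0.935) and Nfix (0.933), and Igf1 like C1s1 (0.874), Pcolce2 (0.871) and Zbtb20 (0.866). Ogn, Col6a2 and Ddr2 encode a matrix proteoglycan, a collagen chain and a collagen receptor. Igf1r had weaker partners, Snx18 (0.841), Rpl23a (0.778) and Cd55 (0.663).

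Of 35 other genes of the IGF pathway, 30 had reads and 9 were deep enough to test between the thyroid fractions. Over the mean of ages 3 of these 9 passed as higher in GFP+ cells (11.4% of all genes) and 1 as lower (8.79%). The higher ones were Htra1 (2.28 ± 0.55, adjusted p = 0.00036) and Htra3 (1.61 ± 0.40, 0.000524), serine proteases able to cut IGF binding proteins, and Irs2 (1.48 ± 0.39, 0.0013), an adaptor below the receptor. The lower one was Stc1 (-3.01 ± 0.57, 3.47e-06), a stanniocalcin that inhibits PAPP-A. Pooled over libraries, the GFP- and GFP+ levels were 127 and 13.6 CPM for Stc1, and 85.8 and 295.5 CPM for Htra3. The lower value of each lay under the level of about 122.6 CPM used for entry to the test. Pappa itself, the Igfbp4 protease, did not pass (0.57, adjusted p = 0.458), and neither did Grb10, Pik3r1 or Akt1. Of the other receptors, Igf2r had 58 reads in GFP- and 78 in GFP+ cells, and Insr 60 and 18, too few to test. Of 7 genes whose proteins carry an IGF-binding protein domain, 5 were tested, and 2 passed as higher and 1 as lower, beside the same 11.4% and 8.79% of all genes. Esm1 was lower (-6.72 ± 0.62, adjusted p = 1.19e-23) while Ccn2 (1.63 ± 0.42, 0.000957) and Ccn3 (1.41 ± 0.49, 0.0235) were higher, and Ccn1 and Crim1 did not pass. A gene of either list could enter the test through the fraction where it was high. The counts over both lists thus support nothing by themselves.

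In salivary gland the members were scarce. All 6 binding proteins together had 38 reads in GFP- cells (126 CPM) and 11 in GFP+ cells (120 CPM). In GFP- cells Igfbp3 was at 52.2, 27.7 and 10.6 CPM, Igfbp7 at 104.5, 0 and 42.4 CPM, Igfbp5 at 65.3, 55.4 and 5.30 CPM, and Igfbp4 at 52.2, 55.4 and 0 CPM in the 3 libraries. In GFP+ cells Igfbp3 had 0 reads in all 3 libraries, which allows up to 32.6 CPM over the group, and Igfbp4 had 6 reads, all in replicate 2 (509 CPM). Igf2 and Igfbp2 had 0 reads in all 6 libraries, Igf1 had 2 reads in 1 GFP- library, and Igf1r had 5 reads, all in GFP- cells. Between the salivary fractions 0 of 7 members and 0 of 974 genes (0% of those tested) passed in edgeR's quasi-likelihood test. At an unadjusted p under 0.05 there were 0 members and 97 genes, and DESeq2 called 0 members. The difference between fractions was not shown to depend on the gland (0 of 7 members, background 0%, 0 at an unadjusted p under 0.05, 0 in DESeq2).

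Of these transcripts, 3 in each fraction passed as higher in thyroid than in salivary cells at 9 months. Among GFP- cells at 9 months, Igfbp4 (3.28 ± 1.08, adjusted p = 0.0246), Igfbp3 (2.36 ± 0.82, 0.0343) and Igfbp7 (2.15 ± 0.78, 0.0450) passed as higher in thyroid, 3 of 7 members against 14.2% of 974 genes (9.86% higher, 4.31% lower). Among GFP+ cells, Igfbp4 (2.88 ± 1.06, adjusted p = 0.0458), Igfbp5 and Igf1 passed, again 3 of 7, against 14.6% of genes (9.55% higher, 5.03% lower). Igfbp5 had 499 reads in thyroid and 2 in salivary cells (adjusted p = 0.0102), a pooled ratio of 71.4 (19.7 to 592). Igf1 had 95 reads in GFP+ thyroid cells and 0 in GFP+ salivary cells (adjusted p = 0.0421), at least 9.07-fold higher. In pooled reads Igfbp3 was 20.03-fold higher in thyroid GFP- cells (9.44 to 50.8, from 125 and 7 reads). The median of all genes was itself higher in thyroid, by 1.16 on the log2 scale in GFP+ and 0.17 in GFP- cells, and by 2.81 and 1.60 when DESeq2's size factors replaced TMM factors. Of the genes called, 65.5% were higher in thyroid in GFP+ and 69.6% in GFP- cells, and 94.5% and 93.6% with DESeq2's size factors. A gene entered this test by reaching about 128.4 CPM in enough of the 12 libraries. Salivary libraries reached it once each for Igfbp4 and Igfbp6 and never for the other 5 members tested, whose highest salivary levels were 21.2 to 104.5 CPM. Those 5 entered through thyroid and were bound to differ, so the counts over members support nothing by themselves. All 3 calls in GFP- cells were lost without thyroid replicate 2 or 3 or salivary replicate 2 or 3, with adjusted p of 0.0575 to 0.463. In GFP+ cells Igfbp4 lost its call without thyroid replicate 2 or 3 or salivary replicate 1 or 3 (0.0870 to 0.172). Salivary replicate 2 held all its salivary reads, and without that library Igfbp4 was at least 58.4-fold higher in thyroid, from 3 reads over the other 80218. Igf1 lost its call without any 1 of these 6 libraries except thyroid replicate 1 (0.0722 to 0.184), and without libraries under 10000 reads (0.0644). Igfbp5 lost its call without thyroid replicate 3 (0.0521) or salivary replicate 3 (0.0667). With no filter on low counts none of the 3 passed in GFP+ cells (0.0862 to 0.236), nor the 3 in GFP- cells (0.367 to 0.544). Beside these values, the 7 endothelial markers summed to 0 to 366 CPM in salivary libraries and to 221 to 3145 CPM in thyroid libraries of 9 months, and the 7 fibroblast markers to 0 to 665 CPM and 2719 to 17872 CPM. Their part in the differences was not tested.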

How the data were processed

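Column-purified, DNase-treated RNA went into 3′ mRNA libraries, per the labels' protocols. The submitters' processing notes name bcl2fastq and the build mm9; the aligner, the counting program and its strand setting are not given in the sources used here. The deposited values are raw counts per gene, 1 table per library, with 47643 gene rows and 5 summary rows that were left out of totals and tests (the no-feature row held 13.3 to 85.8% of reads). Of the gene identifiers, 47224 matched a symbol in GENCODE vM21. Rows annotated as ribosomal RNA, kept in the totals, held 7.12 to 50.5% of reads in genes. With Gm42418, Gm26917 and AY036118 counted among them the share was 25.1 to 63.9%, and runs without ribosomal RNA rows left out this wider set. The 36 pairs of libraries within groups included 0 identical pairs, and the lowest chi-square divided by its degrees of freedom was 1.56.

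Samples were grouped by the labelled gland, fraction and age. CPM were computed over gene rows. Quasi-likelihood tests were run in edgeR 4.0.16 under R 4.3.3, with robust fits after filterByExpr (minimum 10, total 15) and TMM scaling (factors 0.269 to 10.5), and called at a Benjamini-Hochberg adjusted p of 0.05. The 22 thyroid libraries entered 1 fit of 6 groups (1900 genes, biological coefficient of variation 0.466), and the 12 libraries at 9 months a second fit of 4 groups (974 genes, 0.479). Pooled ratios use summed reads with exact 95% intervals, and a gene at 0 is bounded by 3 reads; both cover counting error only. Alternatives included DESeq2 1.42.0. Scripts were tested on simulated counts. Promoter windows are from RefSeq (GRCm38.p6), in which all 9 genes matched; no coordinates of the builds were mixed. The members, gene lists and tests were chosen with earlier results of these data known. The report gives all 9 members, the called members of the pathway lists, and the 3 genes most like each member by correlation.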

Additional observations from a re-analysis of the deposited data

Results flagged for a closer look

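In 5 of 36 groups of 4 libraries checked (9 genes in 4 groups), a single library stood far from the others of its group, where chance flags about 1 in 20 groups of continuous values. That rate does not hold for the 3 of these groups in which the other libraries were all at 0, since any group with reads in 1 library alone stands out in this way. The value was a single read in 3 cases: Igf2 in GFP- thyroid cells at 6 months, replicate 2 (206.4 CPM, the next library at 4.783), Igfbp2 in GFP+ thyroid cells at 3 months, replicate 3 (53.65 CPM, the others at 0), and Igfbp2 in GFP+ thyroid cells at 6 months, replicate 2 (13.1 CPM, the others at 0). Igfbp3 in GFP+ thyroid cells at 3 months was at 74.3 CPM in replicate 4, from 13 reads in the deepest library of that group, and at 0 in the other libraries. Igfbp4 in GFP- thyroid cells at 6 months was at 905.1 CPM in replicate 1, from 27 reads, with the next library at 412.8 CPM.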

How the results depend on the processing

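Over the mean of ages, 383 genes and 6 members were called; a stricter filter gave 63 and 3, the replicate number as a block 188 and 2, and no filter 3 members. At 3 months (184 and 4) the values were 22 and 1 with no filter, 43 and 2 with the stricter filter and 45 and 1 with the block, and 48 genes with only the groups compared. At 6 months (135 and 2) they were 10 and 0, 25 and 0, and 11 and 0, with 66 and 1 for only the groups compared, 229 and 4 for library size only, 234 and 4 without libraries under 10000 reads, and 43 and 1 in DESeq2. At 9 months (36 and 1) they were 3 and 0, 5 and 0, and 5 and 0, with 19 genes for only the groups compared, 13 in DESeq2 and 2 members without libraries under 10000 reads. The change of the GFP difference with age (3 genes) gave 8 with DESeq2 size factors, 10 with library size only, 20 without libraries under 10000 reads and 0 in DESeq2. GFP+ cells across ages (30 genes) gave 56 with no filter, 7 with the stricter filter, 2 in DESeq2, 11 for only the groups compared and 19 with the block. GFP- cells across ages (29 genes, 0 members) gave 60 and 1 with DESeq2 size factors, 87 and 1 with library size only, 117 and 2 without libraries under 10000 reads, 10 and 1 with the stricter filter, and 5 with no filter, 16 without ribosomal RNA rows, 53 for only the groups compared, and 2 each in DESeq2, with all 28 libraries in 1 fit and with the block. Between the salivary fractions (0 genes) DESeq2 size factors gave 12, and 4 were called without ribosomal RNA rows and with all 28 libraries. Thyroid against salivary GFP+ cells (142 and 3) gave 708 and 6 with DESeq2 size factors, 728 and 6 with library size only, 562 and 5 in DESeq2, 31 and 0 with no filter, 21 genes with the stricter filter and 1 member with the block. In GFP- cells (138 and 3) the values were 501 and 7, 721 and 7, 363 and 7, 50 and 0, 21 genes, and 72 and 0 in that order, with 208 genes without libraries under 10000 reads and 1 member with all 28 libraries. The interaction with gland (0 genes) gave 1 without libraries under 10000 reads. The causes were not tested. DESeq2 size factors rested on the 17 genes (thyroid) or 20 genes (9 months) with reads in every library.

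Leaving out 1 library at a time gave 330 to 425 genes and 3 to 6 members over the mean of ages, 136 to 201 and 2 to 4 at 3 months, 78 to 167 and 1 to 3 at 6 months, and 6 to 43 and 0 to 1 at 9 months. It gave 0 to 6 genes for the change with age, 13 to 48 for GFP+ and 1 to 49 for GFP- cells across ages, 0 to 18 between salivary fractions, 31 to 152 genes and 0 to 3 members between glands in GFP+ cells, 32 to 203 and 0 to 4 in GFP- cells, and 0 to 1 genes for the interaction with gland. Where this left 2 libraries in a group, the fit pooled the spread over groups.

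Igf1r at 9 months (-0.08) changed sign with DESeq2 size factors (0.17), no filter (0.0779), DESeq2 (0.217), all 28 libraries (0.0143) and the block (0.16), and from -0.32 to 0.30 on leaving out libraries; at 3 months it ran from -0.22 to 1.24. No other member's difference between the thyroid fractions changed direction in any alternative run. The calls of Igfbp3 and Igfbp6 over the mean of ages held in every alternative run that tested them, and the stricter filter left both out. Igfbp3 missed the threshold at 6 and 9 months with no filter (adjusted p = 0.0734 and 0.19) and with the block (0.0528 and 0.0634), Igfbp7 at 3 months and Igfbp6 at 6 months in DESeq2 (0.0785 and 0.164), and Igfbp5 over the mean of ages without libraries under 10000 reads (0.075). Igfbp4 passed at 3 months under 6 alternatives, with adjusted p of 4.6e-05 to 0.00795. With the block, Igf1, Igfbp4, Igfbp5 and Igfbp7 missed the threshold over the mean of ages (0.0549, 0.309, 0.299 and 0.0639). Replicate numbers were shared between groups, and the labels do not say that a number marks a shared animal. Residuals were correlated above 0.1 in 3 of 11 same-number pairs of thyroid fractions (-0.0892 to 0.351) and 2 of 3 salivary pairs. Between ages 0 of 20 pairs were, and between glands 0 of 6. The highest value was that of replicate 3 at 6 months. Several pairs held a library under 10000 reads, so these correlations cannot exclude that the numbers pair the libraries. Depth limits the low members most, since 1 read is worth 4.78 to 1972 CPM depending on the library.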
